A study of Mus musculus with 32 samples.

Results

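The genes described here encode the receptor for interferon gamma (IFNγ), the kinases and transcription factors that carry its signal, and the proteins that stop it. They were chosen by symbol from the deposited table of gene counts: the receptor chains Ifngr1 and Ifngr2, the Janus kinases Jak1 and Jak2, the transcription factors Stat2 and Stat3, and the inhibitors Socs1, Socs3 and Ptpn2. Each symbol was found with 1 identifier, so that 9 of 54429 symbols in the merged table are described. All 9 passed the filter on low counts, which kept 15254 genes.

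Bulk RNA-seq had been made from Veravec cells, a mouse lung endothelial cell (EC) line, in 8 groups of 4 libraries that the labels call biological replicates. The si-control group received a control siRNA and no cytokine, and the si-dnmt group received siRNA against Dnmt1, the maintenance DNA methyltransferase, and no cytokine. The other groups received the same siRNAs and then TNF (TNFα at 10 ng/mL), IFN (IFNγ at 1000 U/mL) or TNF + IFN for 16 h, where the methods state the doses for the single cytokines and not separately for the pair. All 8 groups are a single cultured cell line that went through a pair of siRNA transfections, so that no group holds untransfected cells. In bulk RNA, fewer cells of a kind and less RNA per cell cannot be told apart.

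IFNγ binds a receptor of IFNGR1 and IFNGR2 chains, on which JAK1 and JAK2 sit and phosphorylate each other, the receptor and then STAT proteins. STAT dimers bind a palindromic element named GAS, and STAT2, which is best known from the type I interferon response, joins IRF9 and a partner STAT on the interferon-stimulated response element (ISRE). SOCS1 and SOCS3 are induced by this signalling and block the kinases, and PTPN2 is a phosphatase that removes phosphate from JAKs and STATs. In ECs the pathway is known for inducing antigen presentation and the chemokines that attract T cells.

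Libraries held 17362546 to 33500030 counts (median 20859668). The targeted gene Dnmt1 stood at 5.11 to 17.3 CPM (counts scaled to library size by the TMM method) in the 16 si-dnmt libraries and at 86.5 to 211 CPM in the 16 si-control libraries, with no overlap. All 10 endothelial markers examined were detected in all 32 libraries. Before scaling, Cdh5 stood at 828 to 2871 CPM, Pecam1 at 632 to 2145 CPM and Cldn5, the lowest, at 0.111 to 38.8 CPM. The epithelial marker Krt18 was also detected in all 32, at 3.21 to 23.2 CPM before scaling. Epcam, Cdh1 and Scgb1a1 had 4 counts or fewer in any library, and Cd3e and Sftpc had 0 counts in all 32. Summed over the markers, the endothelial list ranged from 6138 to 8900 CPM in si-control and from 3263 to 4646 CPM in si-control + TNF + IFN. The 5 leukocyte markers summed to 44.9 to 131 CPM in si-control and 1.17 to 7.25 CPM in si-dnmt + TNF + IFN, nearly all of it Lyz2, with the defining marker Ptprc at 3 counts or fewer. The 5 fibroblast and pericyte markers summed to 1.87 to 3.75 CPM in si-control and 15.9 to 58.4 CPM in si-control + TNF, mostly Dcn. The part of these shifts in the results was not tested. In several of the genes, replicates 1 and 2 stood apart from replicates 3 and 4 in most groups. The labels name no batch, and values within a pair of replicates, which leave 2 libraries a group, are given beside many of the results.

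The bases just upstream of the start of 3 of the 8 genes examined hold a GAS or ISRE match, and these 3 sequences are shown because they hold the matches. They come from RefSeq on build GRCm38.p6, run 5′ to 3′ on the gene's strand over the 250 bases before the annotated start, and carry the matched letters in capitals. The letters searched on both strands were TTCNNNGAA for GAS, and TTTC, any 2 bases and TTTC for ISRE.
Socs1 (chr16:10785537-10785786, minus strand): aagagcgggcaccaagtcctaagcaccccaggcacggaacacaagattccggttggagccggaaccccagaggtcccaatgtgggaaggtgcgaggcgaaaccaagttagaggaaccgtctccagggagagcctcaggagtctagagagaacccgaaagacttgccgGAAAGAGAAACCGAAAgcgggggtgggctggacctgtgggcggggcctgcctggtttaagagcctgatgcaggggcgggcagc
Socs3 (chr11:117969367-117969616, minus strand): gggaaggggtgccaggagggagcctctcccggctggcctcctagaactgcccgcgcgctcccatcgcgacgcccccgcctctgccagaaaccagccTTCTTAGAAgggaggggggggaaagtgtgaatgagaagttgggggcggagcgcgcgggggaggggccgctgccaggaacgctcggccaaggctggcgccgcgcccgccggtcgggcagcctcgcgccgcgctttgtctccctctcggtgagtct
Stat2 (chr10:128270248-128270497, plus strand): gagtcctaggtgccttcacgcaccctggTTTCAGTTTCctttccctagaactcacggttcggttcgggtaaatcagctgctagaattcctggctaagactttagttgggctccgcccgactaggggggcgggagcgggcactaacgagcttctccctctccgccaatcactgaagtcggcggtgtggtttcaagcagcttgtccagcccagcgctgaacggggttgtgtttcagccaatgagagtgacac
In Socs1 a pair of overlapping ISRE matches lay on the opposite strand, with their first bases 83 and 77 before the start (positions -83 and -77). Socs3 had 1 GAS match at position -154, and Stat2 had 1 ISRE match at position -222. Of 32851 such windows in the table, 7.02% held the GAS letters and 2.98% the ISRE letters. The windows of Ifngr1, Ifngr2, Jak1, Jak2 and Stat3 held neither, which says only that these letters are not in that window. The window of Ptpn2 was not examined. Since Dnmt1 keeps methyl groups on CpG sites, the sites were counted: Jak2 had 37, Socs3 26, Ifngr2 25, Jak1 19, Stat2 14, Socs1 13, Stat3 13 and Ifngr1 11, against a median of 6 over all windows. The lower and upper quartiles over all windows were 2 and 16, and Stat2, Socs1, Stat3 and Ifngr1 lay between them. Methylation was not measured in these libraries.

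Levels of different genes are compared per kilobase of exon. Without cytokine, si-control ECs held the most Jak1 of the 9 genes, at 50.8 CPM per kb, followed by Stat2 at 31.8 and Ifngr2 at 28.8 CPM per kb. Jak2 stood at 9.46 CPM per kb and Ifngr1, the ligand-binding chain, at 14.5 CPM per kb, both below their partners in the receptor complex. Among the brakes, Socs3 stood at 9.84 CPM per kb, close to Jak2, while Ptpn2 at 6.21 and Socs1 at 0.487 CPM per kb were the lowest of the 9. With IFNγ, Socs1 stood at 14.9 CPM per kb in si-control ECs, above Ptpn2 at 10.3 and below Socs3 at 25.3 CPM per kb. With TNF + IFN, Jak2 reached 55.0 CPM per kb, near Jak1 at 63.9 CPM per kb, and Stat2 was the highest of the 9 at 93.2 CPM per kb.

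**Figure D1:**
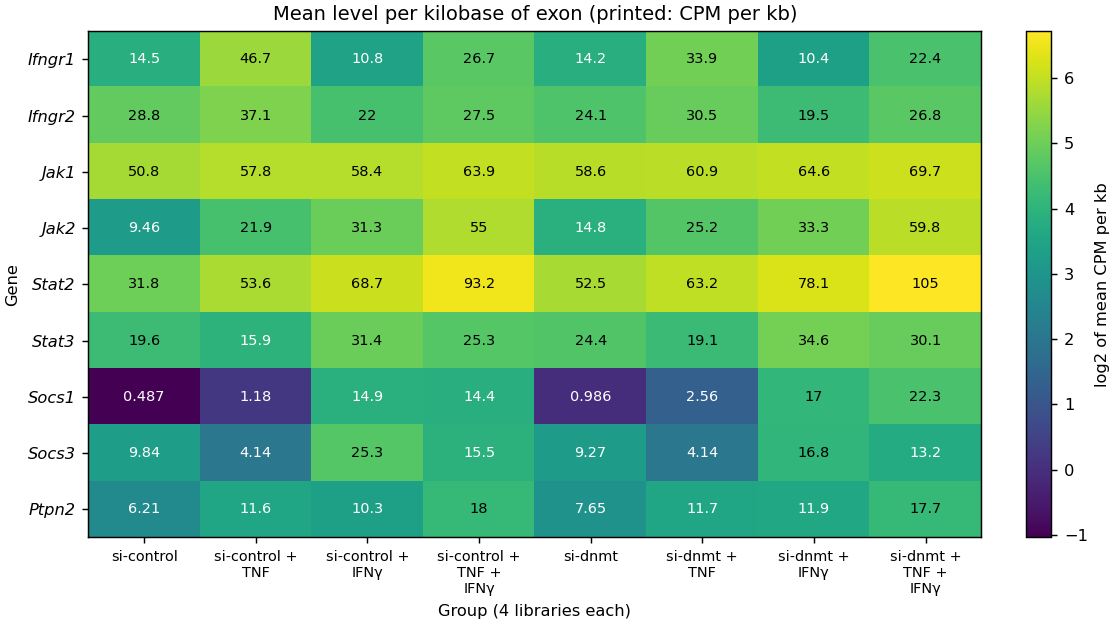
Mean level of each gene (rows) in each group of 4 libraries (columns), as CPM per kilobase of exon printed in the cell and as its log2 in colour. Socs1 goes from 0.487 CPM per kb in si-control to 14.9 with IFNγ, while Jak1 stays between 50.8 and 69.7 CPM per kb in all 8 groups.

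The first comparison asked how each cytokine moved the pathway in si-control ECs. TNF raised 5 of the 9 genes (Ifngr1, Jak2, Stat2, Socs1 and Ptpn2) and lowered 1 (Socs3) at an adjusted p under 0.05 in edgeR's quasi-likelihood test, where 16.1% of all genes tested were higher and 14.6% lower. IFNγ raised 6 (Jak2, Stat2, Stat3, Socs1, Socs3 and Ptpn2) and lowered Ifngr1, against 8.56% higher and 5.92% lower over all genes. TNF + IFN raised 6 (Ifngr1, Jak1, Jak2, Stat2, Socs1 and Ptpn2) and lowered 0, against 23.5% higher and 21.6% lower. The median log2 fold change of the 9 genes was 0.75 with TNF, 0.73 with IFNγ and 0.88 with TNF + IFN, where the median over all genes was within 0.01 of 0. The 3 comparisons share the 4 si-control libraries without cytokine.

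In si-dnmt ECs TNF raised 4 genes (Ifngr1, Jak2, Socs1 and Ptpn2) and lowered 0, against 11.5% of all genes higher and 9.54% lower. IFNγ raised Jak2, Stat2, Socs1 and Ptpn2 and lowered Ifngr1, against 6.66% higher and 2.35% lower. TNF + IFN raised Ifngr1, Jak2, Stat2, Socs1 and Ptpn2 and lowered 0, against 21.3% higher and 18.9% lower. With the replicate number as a block, the calls rose to 8 of 9 genes in each of these 3 comparisons. They were 6 higher and 2 lower with TNF, 6 higher and 2 lower with IFNγ, and 8 higher with TNF + IFN. Over all genes the block called 34.3% with TNF, 19.0% with IFNγ and 51.7% with TNF + IFN in either direction. In si-control ECs the block also raised the counts, from 6 to 8 with TNF, 7 to 9 with IFNγ and 6 to 8 with TNF + IFN. Over the 6 cytokine comparisons under both siRNAs it called 2892 to 8399 of the 15254 genes tested.

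**Figure D2:**
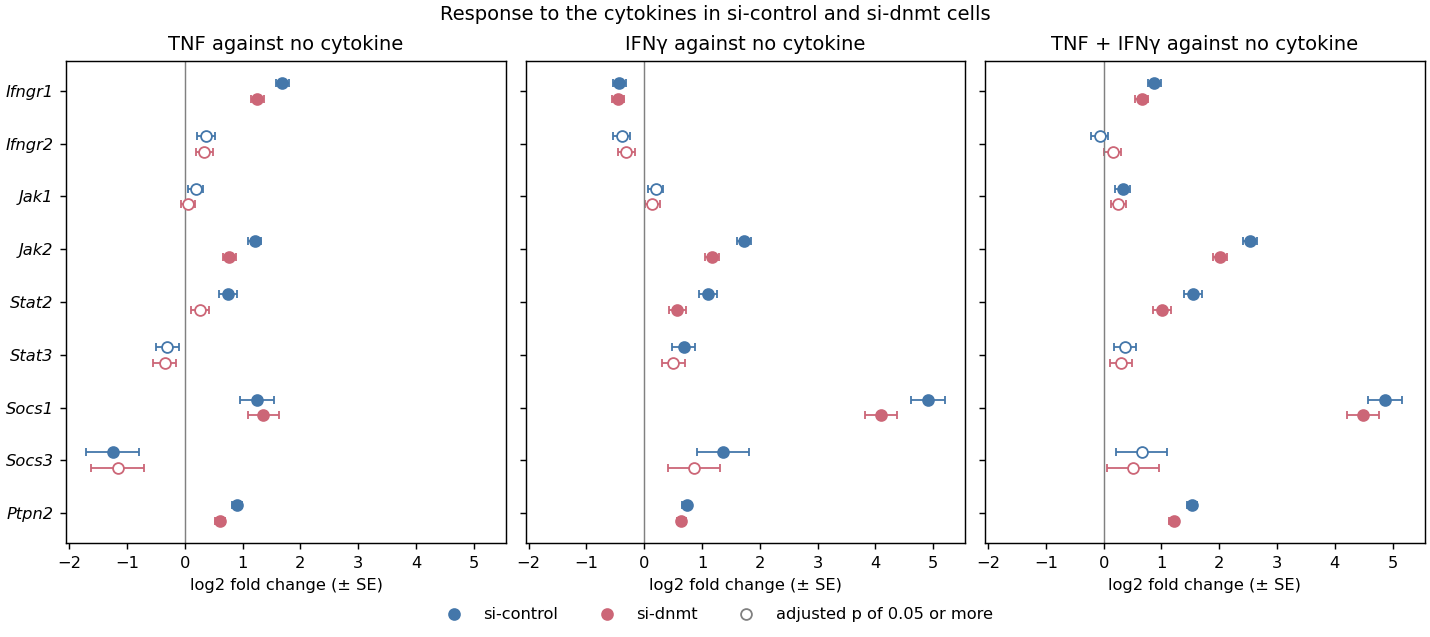
log2 fold change (± SE) of each gene with TNF, IFNγ or TNF + IFNγ against no cytokine, in si-control (blue) and si-dnmt (red) ECs, with open circles where the adjusted p was 0.05 or more. Socs1 with IFNγ lies at 4.91 and 4.09, and Ifngr1 is above 0 with TNF and below 0 with IFNγ under both siRNAs.

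Ifngr1, the chain that binds IFNγ, moved up with TNF and down with IFNγ. In si-control ECs it stood at 40.3, 48.7, 37.7 and 38.7 CPM in replicates 1 to 4 without cytokine and at 134, 139, 128 and 132 CPM with TNF. It stood at 31.7, 34.5, 29.2 and 27.2 CPM with IFNγ and at 59.4, 61.8, 93.2 and 90.0 CPM with TNF + IFN. All libraries with TNF lay above the untreated ones and all with IFNγ lay below them. The log2 fold change (± SE) was 1.68 ± 0.11, adjusted p = 6.18e-12 with TNF, a 3.21-fold rise. With IFNγ it was -0.43 ± 0.11, adjusted p = 0.00752, and with TNF + IFN it was 0.88 ± 0.11, adjusted p = 1.93e-07. With TNF + IFN the rise was 0.47 within replicates 1 and 2 and 1.26 within replicates 3 and 4.

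In si-dnmt ECs Ifngr1 stood at 39.5, 39.8, 41.6 and 40.9 CPM without cytokine and at 105, 99.9, 87.9 and 92.7 CPM with TNF. With IFNγ it stood at 30.5, 29.8, 29.5 and 28.5 CPM and with TNF + IFN at 66.1, 65.6, 64.1 and 59.7 CPM. These cells shared the direction of all 3 responses, at 1.25 ± 0.11, adjusted p = 2.49e-09 for TNF, -0.45 ± 0.11, adjusted p = 0.00652 for IFNγ and 0.66 ± 0.11, adjusted p = 1.94e-05 for TNF + IFN. Under TNF all 4 si-dnmt libraries lay below all 4 si-control libraries, with a log2 fold change of -0.46 ± 0.11, adjusted p = 0.00304. Without cytokine and with IFNγ the siRNAs gave overlapping values (-0.03 ± 0.11 and -0.05 ± 0.11). With TNF + IFN the difference was -0.25 ± 0.11, adjusted p = 0.118, but -0.57, adjusted p = 5.82e-06 within replicates 3 and 4 and 0.12 within replicates 1 and 2. Leaving out si-control + TNF + IFN replicate 1 or 2 brought it to -0.36 (adjusted p = 0.0218) or -0.34 (adjusted p = 0.0390). Ordered by mean, the groups with IFNγ alone were lowest, then those without cytokine, with TNF + IFN and with TNF, and the siRNAs overlapped at each step but the last, where si-control + TNF stood clear above si-dnmt + TNF.

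Ifngr2, the signalling chain of the receptor, was not called in any of the 10 comparisons between groups. It stood at 116, 147, 83.9 and 86.8 CPM in si-control ECs without cytokine, at 141, 160.0, 124 and 135 CPM with TNF and at 88.0, 101, 69.7 and 73.5 CPM with IFNγ. Replicates 1 and 2 were the higher pair in each of these groups. The untreated libraries overlapped those with TNF and those with IFNγ, while all with TNF lay above all with IFNγ. The log2 fold change was 0.37 ± 0.15, adjusted p = 0.0595 with TNF and -0.39 ± 0.15, adjusted p = 0.0830 with IFNγ in si-control ECs. With the replicate number as a block both passed, at 0.39, adjusted p = 0.000676 and -0.37, adjusted p = 0.00193. Both also passed without 1 library: TNF without si-control replicate 2 (0.55, adjusted p = 0.00454), and IFNγ without si-control replicate 3 or 4 or si-control + IFN replicate 2 (-0.49 to -0.52, adjusted p = 0.0265 to 0.0276). With TNF + IFN it stood at 106, 100.3, 103 and 105 CPM, a log2 fold change of -0.07 ± 0.15, adjusted p = 0.752. That value joined opposite changes, -0.33, adjusted p = 0.00868 within replicates 1 and 2 and 0.29, adjusted p = 0.00608 within replicates 3 and 4.

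In si-dnmt ECs Ifngr2 stood at 99.6, 106, 79.3 and 77.7 CPM without cytokine, 119.5, 126, 98.7 and 116 CPM with TNF and 76.4, 79.5, 66.8 and 70.8 CPM with IFNγ, in the same order as in si-control ECs. Its log2 fold change was 0.34 ± 0.15, adjusted p = 0.104 with TNF and -0.31 ± 0.15, adjusted p = 0.249 with IFNγ, and 0.35, adjusted p = 0.00276 and -0.30, adjusted p = 0.0169 with the block. Under the block Ifngr2 was also lower in si-dnmt than in si-control ECs in the absence of cytokine (-0.24, adjusted p = 0.0342) and under TNF (-0.28, adjusted p = 0.0132). With TNF + IFN the siRNA difference was -0.04 ± 0.15, adjusted p = 0.905, or 0.15 within replicates 1 and 2 and -0.25, adjusted p = 0.0233 within replicates 3 and 4. All neighbours in the order of its 8 group means overlapped.

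Jak1, the kinase shared by many cytokine receptors, varied little. It ranged from 309 to 572 CPM over the 32 libraries, and every neighbouring pair of groups in the order of its means overlapped. The single call was TNF + IFN in si-control ECs, where it stood at 481, 471, 459 and 438 CPM against 387, 449, 309 and 322 CPM without cytokine. The groups overlapped, and the log2 fold change was 0.33 ± 0.13, adjusted p = 0.0368. It was no longer called in DESeq2 (0.32, adjusted p = 0.0543), with RLE scaling (0.32, adjusted p = 0.0508), in a fit of only the 8 libraries compared (0.31, adjusted p = 0.0827), or when replicate 3 or 4 of si-control or any library of si-control + TNF + IFN was left out (0.26 to 0.34, adjusted p = 0.0538 to 0.137). With the block it was 0.35, adjusted p = 8.16e-05. The block also brought Jak1 under 0.05 with TNF (0.20, adjusted p = 0.0199) and IFNγ (0.21, adjusted p = 0.0236) in si-control ECs, with TNF + IFN in si-dnmt ECs (0.25, adjusted p = 0.00296), and between the siRNAs without cytokine (0.21, adjusted p = 0.0189).

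Jak2, the kinase that sits on the IFNGR2 chain, rose with each cytokine and most with both. Si-control ECs held Jak2 at 41.1, 47.4, 47.2 and 54.6 CPM without cytokine and at 87.2, 96.0, 135 and 122 CPM with TNF. It stood at 164, 155, 169 and 142 CPM with IFNγ and at 269.7, 272, 283 and 282 CPM with TNF + IFN. The 4 groups did not overlap at any step of that order. The log2 fold changes were 1.21 ± 0.11, adjusted p = 4.90e-09 with TNF, 1.73 ± 0.12, adjusted p = 2.47e-12 with IFNγ and 2.54 ± 0.12, adjusted p = 4.75e-16 with TNF + IFN, the last a 5.81-fold rise.

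In si-dnmt ECs Jak2 started higher, at 73.4, 75.2, 76.1 and 72.4 CPM without cytokine. All 4 values lay above the si-control ones, and the log2 fold change between the siRNAs was 0.64 ± 0.11, adjusted p = 0.000188, with 0.76 within replicates 1 and 2 and 0.54 within replicates 3 and 4. It stood at 116, 120.4, 130.2 and 139.8 CPM with TNF, at 186, 187, 148 and 150.4 CPM with IFNγ and at 339.5, 319, 278 and 266 CPM with TNF + IFN, each overlapping its si-control counterpart. The rises were 0.77 ± 0.11, adjusted p = 1.25e-05, 1.17 ± 0.11, adjusted p = 8.19e-09 and 2.02 ± 0.12, adjusted p = 5.55e-14. The differences between the siRNAs were 0.20 ± 0.11, adjusted p = 0.224 with TNF, 0.09 ± 0.11, adjusted p = 0.630 with IFNγ and 0.12 ± 0.11, adjusted p = 0.518 with TNF + IFN. With IFNγ and with TNF + IFN that difference was above 0 within replicates 1 and 2 (0.21, and 0.28, adjusted p = 0.0182) and below 0 within replicates 3 and 4 (-0.06 and -0.05). With TNF it was 0.37, adjusted p = 0.00250 within replicates 1 and 2 and 0.07 within replicates 3 and 4.

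**Figure D3:**
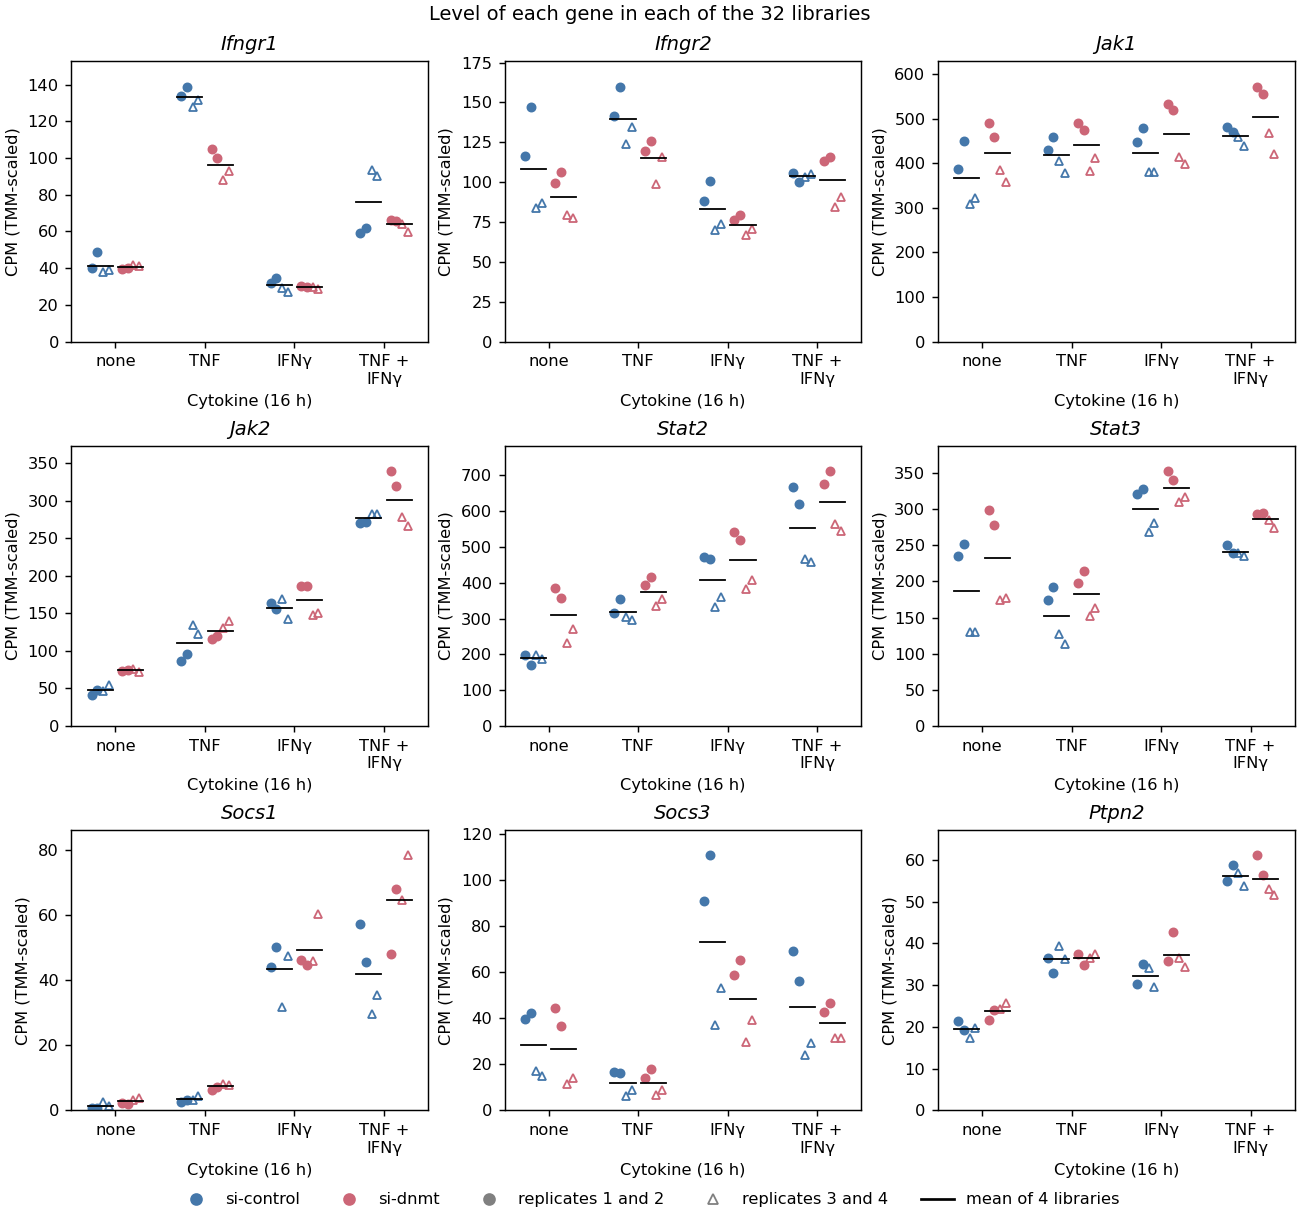
Level of each gene (y axis, CPM from 0) in every library of the 8 groups, by cytokine along the x axis, with si-control in blue and si-dnmt in red, replicates 1 and 2 as filled circles, replicates 3 and 4 as open triangles, and a bar at the mean of 4 libraries. Jak2 without cytokine is 41.1 to 54.6 CPM in si-control and 72.4 to 76.1 CPM in si-dnmt libraries, and in Socs3 the circles lie above the triangles in all 8 groups.

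Stat2 rose in the order of TNF, IFNγ and both cytokines. In si-control ECs it stood at 199, 171, 197 and 187 CPM without cytokine and at 315, 354, 304 and 297 CPM with TNF. With IFNγ it stood at 471, 465, 331 and 360.1 CPM and with TNF + IFN at 667, 621, 465 and 457 CPM. All libraries with a cytokine lay above the untreated ones, the groups with TNF and with IFNγ overlapped, and replicates 1 and 2 were the higher pair in the groups with IFNγ. The log2 fold changes were 0.75 ± 0.16, adjusted p = 0.000476 with TNF, 1.11 ± 0.16, adjusted p = 4.42e-06 with IFNγ and 1.55 ± 0.16, adjusted p = 3.77e-09 with TNF + IFN.

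Without cytokine si-dnmt ECs held 387, 356, 231 and 270.0 CPM of Stat2, all above the si-control libraries, and the log2 fold change was 0.72 ± 0.15, adjusted p = 0.00140. It was 1.01 within replicates 1 and 2 and 0.38 within replicates 3 and 4. With TNF the si-dnmt libraries stood at 393, 415, 336 and 355 CPM, with IFNγ at 542, 518, 384 and 409 CPM and with TNF + IFN at 677, 712, 565 and 544 CPM. These overlapped the si-control libraries, with differences of 0.24 ± 0.15, adjusted p = 0.305, 0.19 ± 0.15, adjusted p = 0.435 and 0.18 ± 0.15, adjusted p = 0.486. With TNF it passed within replicates 1 and 2 (0.27, adjusted p = 0.0367), and with TNF + IFN within replicates 3 and 4 (0.26, adjusted p = 0.0137). Within si-dnmt ECs the response was 0.27 ± 0.15, adjusted p = 0.235 to TNF (0.29, adjusted p = 0.0177 with the block), 0.57 ± 0.15, adjusted p = 0.0143 to IFNγ and 1.01 ± 0.16, adjusted p = 5.84e-06 to TNF + IFN. The IFNγ call was lost in a fit of only the 8 libraries compared (adjusted p = 0.0900), and on leaving out replicate 3 or 4 of si-dnmt or replicate 1 or 2 of si-dnmt + IFN (0.46 to 0.52, adjusted p = 0.0580 to 0.0794).

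Stat3, which serves the IL-6 family of receptors, followed another order, lowest with TNF and highest with IFNγ. In si-control ECs it stood at 235, 252, 130.4 and 129 CPM without cytokine and at 321, 327, 269 and 281 CPM with IFNγ, all above the untreated libraries, with a log2 fold change of 0.68 ± 0.19, adjusted p = 0.0155. That call was lost in a fit of only the 8 libraries compared (adjusted p = 0.114), and on leaving out replicate 3 or 4 of si-control or replicate 1 or 2 of si-control + IFN (0.51 to 0.62, adjusted p = 0.0570 to 0.0948), and the rise was 0.44 within replicates 1 and 2 and 1.08 within replicates 3 and 4. With TNF Stat3 stood at 174, 193, 127 and 113 CPM (-0.30 ± 0.19, adjusted p = 0.253), and with TNF + IFN at 235 to 250.04 CPM (0.37 ± 0.19, adjusted p = 0.127). Without si-control replicate 2 the TNF + IFN value was 0.54 (adjusted p = 0.0285), and with the block it was 0.42, adjusted p = 0.00562. It was 0.02 within replicates 1 and 2 and 0.87, adjusted p = 1.67e-09 within replicates 3 and 4.

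In si-dnmt ECs Stat3 stood at 298, 278, 175 and 178 CPM without cytokine and at 353, 340.0, 309.8 and 316 CPM with IFNγ, again with no overlap. The difference was 0.51 ± 0.19, adjusted p = 0.111, or 0.54, adjusted p = 0.00207 with the block and 0.65 (adjusted p = 0.0478) without si-dnmt replicate 1. With TNF it was -0.35 ± 0.19, adjusted p = 0.215 (-0.33, adjusted p = 0.0423 with the block), and with TNF + IFN 0.30 ± 0.19, adjusted p = 0.224 (0.34, adjusted p = 0.0227 with the block). Between the siRNAs Stat3 did not pass in any state: 0.31 ± 0.19, adjusted p = 0.284 without cytokine (0.33, adjusted p = 0.0465 with the block), 0.26 ± 0.19 with TNF, 0.14 ± 0.19 with IFNγ and 0.25 ± 0.19, adjusted p = 0.418 with TNF + IFN. Within replicates 3 and 4 the difference with TNF was 0.40, adjusted p = 0.000250, and within replicates 1 and 2 0.17. With TNF + IFN a fit of only the 8 libraries compared gave 0.26, adjusted p = 0.0350, and all 4 si-dnmt libraries, at 292, 294, 285 and 274 CPM, lay above the si-control ones.

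Socs1, the feedback inhibitor of JAK kinases, had the largest response of the 9 genes. In si-control ECs it stood at 0.751, 0.795, 2.59 and 1.52 CPM without cytokine, from as few as 15 counts in a library, and at 2.71, 3.19, 3.37 and 4.41 CPM with TNF. With IFNγ it stood at 44.0, 50.4, 31.7 and 47.4 CPM and with TNF + IFN at 57.4, 45.6, 29.5 and 35.5 CPM. The groups with IFNγ stood far above the others and overlapped each other. The log2 fold change was 4.91 ± 0.30, adjusted p = 2.34e-13 with IFNγ, a 30.1-fold rise, and 4.87 ± 0.30, adjusted p = 1.12e-13 with TNF + IFN. With IFNγ it was 5.95 within replicates 1 and 2 and 4.26 within replicates 3 and 4, whose untreated libraries were the higher pair. TNF gave 1.25 ± 0.30, adjusted p = 0.00184.

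Si-dnmt ECs held 2.40, 1.97, 3.34 and 3.75 CPM of Socs1 without cytokine and 6.36, 7.28, 8.12 and 7.97 CPM with TNF. They held 46.4, 44.6, 46.1 and 60.3 CPM with IFNγ and 48.2, 68.0, 64.6 and 78.4 CPM with TNF + IFN. The responses were 1.36 ± 0.26, adjusted p = 0.000395 to TNF, 4.09 ± 0.28, adjusted p = 4.59e-12 to IFNγ and 4.48 ± 0.28, adjusted p = 2.44e-13 to TNF + IFN. Under TNF all si-dnmt libraries lay above the si-control ones, at 1.12 ± 0.26, adjusted p = 0.00290, a 2.17-fold difference.

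Without cytokine the siRNA groups overlapped in Socs1 through si-control replicate 3, and the log2 fold change was 1.01 ± 0.30, adjusted p = 0.0166, or 1.50 within replicates 1 and 2 and 0.78 within replicates 3 and 4. It was no longer called when only the 8 libraries compared were fitted (1.01, adjusted p = 0.128), nor when replicate 1 or 2 of si-control, or replicate 3 or 4 of si-dnmt, was left out (0.80 to 0.93, adjusted p = 0.0555 to 0.0781). With IFNγ the siRNAs differed by 0.19 ± 0.24, adjusted p = 0.631, or -0.07 within replicates 1 and 2 and 0.43, adjusted p = 0.0378 within replicates 3 and 4. With TNF + IFN they differed by 0.62 ± 0.24, adjusted p = 0.0659 in edgeR, 0.64, adjusted p = 0.0424 in DESeq2 and 0.60, adjusted p = 0.0223 with the block. It was 0.81 (adjusted p = 0.0263) without si-control + TNF + IFN replicate 1, 0.74 (adjusted p = 0.0417) without si-dnmt + TNF + IFN replicate 1, 0.17 within replicates 1 and 2, and 1.13, adjusted p = 9.78e-06 within replicates 3 and 4.

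Socs3, the inhibitor best known from IL-6 family receptors, differed most between replicates. Si-control ECs held Socs3 at 39.7, 42.3, 17.0 and 14.8 CPM without cytokine and at 16.6, 16.2, 6.27 and 8.77 CPM with TNF. It stood at 91.2, 111, 37.3 and 53.2 CPM with IFNγ and at 69.1, 56.4, 24.3 and 29.3 CPM with TNF + IFN. Replicates 1 and 2 lay above replicates 3 and 4 in all 8 groups, so that the untreated si-control libraries overlapped each cytokine group. Within each pair of replicates of si-control, TNF lay lowest and IFNγ highest, and all libraries with TNF lay below all with IFNγ or TNF + IFN. The log2 fold change was -1.25 ± 0.46, adjusted p = 0.0389 with TNF and 1.36 ± 0.45, adjusted p = 0.0401 with IFNγ, and 0.66 ± 0.45, adjusted p = 0.244 with TNF + IFN. With the block these were -1.22, adjusted p = 6.46e-07, 1.38, adjusted p = 5.04e-08 and 0.67, adjusted p = 0.000586. Outside the block, the TNF call was lost in a fit of only the 8 libraries compared (adjusted p = 0.0648), and on leaving out replicate 1 or 2 of si-control or replicate 3 or 4 of si-control + TNF (-0.99 to -1.13, adjusted p = 0.102 to 0.131). The IFNγ call was lost in the same way (adjusted p = 0.0901 in the smaller fit), and on leaving out replicate 3 or 4 of si-control or replicate 1 or 2 of si-control + IFN (1.06 to 1.21, adjusted p = 0.110 to 0.156).

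Si-dnmt ECs held 44.6, 36.6, 11.7 and 14.3 CPM of Socs3 without cytokine, 14.3, 17.8, 6.69 and 9.05 CPM with TNF and 58.7, 65.6, 29.9 and 39.5 CPM with IFNγ. With TNF + IFN they held 42.6, 46.9, 31.5 and 31.7 CPM. The responses were -1.16 ± 0.46, adjusted p = 0.0727 to TNF, 0.86 ± 0.45, adjusted p = 0.308 to IFNγ and 0.51 ± 0.45, adjusted p = 0.391 to TNF + IFN. With the block they were -1.07, adjusted p = 7.70e-06, 0.98, adjusted p = 1.86e-05 and 0.70, adjusted p = 0.000400. The TNF value also passed without si-dnmt replicate 3 or 4 (-1.41, adjusted p = 0.0332, and -1.37, adjusted p = 0.0435). Between the siRNAs the values overlapped in every state, and the one difference called with the block was lower Socs3 in si-dnmt ECs with IFNγ (-0.54, adjusted p = 0.00693, and -0.60 ± 0.44, adjusted p = 0.376 without it). With TNF + IFN the difference was -0.23 ± 0.45, adjusted p = 0.783, or -0.49, adjusted p = 0.00580 within replicates 1 and 2 and 0.23, adjusted p = 0.310 within replicates 3 and 4.

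Ptpn2, the phosphatase, rose with each cytokine, and its replicates lay close together. Si-control ECs held Ptpn2 at 21.4, 19.2, 17.3 and 19.7 CPM without cytokine and at 36.5, 33.0, 39.3 and 36.3 CPM with TNF. With IFNγ it stood at 30.4, 35.1, 34.1 and 29.6 CPM and with TNF + IFN at 55.0, 58.9, 56.9 and 53.7 CPM. The groups with a single cytokine overlapped each other and lay between the other groups. The log2 fold changes were 0.90 ± 0.08, adjusted p = 3.08e-09 with TNF, 0.73 ± 0.08, adjusted p = 1.01e-07 with IFNγ and 1.53 ± 0.08, adjusted p = 1.20e-14 with TNF + IFN.

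In si-dnmt ECs Ptpn2 stood at 21.6, 24.0, 24.4 and 25.6 CPM without cytokine, all above the si-control libraries. The difference was 0.30 ± 0.08, adjusted p = 0.0108, 0.18 within replicates 1 and 2 and 0.43 within replicates 3 and 4. It was no longer called when si-control replicate 3 was left out (0.25, adjusted p = 0.0515), in a fit of only the 8 libraries (0.30, adjusted p = 0.0842), and with no filter on low counts (0.32, adjusted p = 0.0503). With TNF si-dnmt ECs held 37.5, 34.8, 36.5 and 37.4 CPM of Ptpn2, with IFNγ 35.8, 42.8, 36.5 and 34.3 CPM, and under the pair of cytokines 61.0, 56.3, 53.0 and 51.5 CPM, each overlapping the si-control libraries. With TNF the siRNAs differed by 0.01 ± 0.08, with IFNγ by 0.21 ± 0.08, adjusted p = 0.0719, and with TNF + IFN by -0.02 ± 0.08. The responses in si-dnmt ECs were 0.61 ± 0.08, adjusted p = 3.53e-06 to TNF, 0.64 ± 0.08, adjusted p = 1.28e-06 to IFNγ and 1.21 ± 0.08, adjusted p = 1.89e-12 to TNF + IFN.

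The second comparison asked how knockdown of Dnmt1 changed the pathway in each cytokine state. Without cytokine 4 of the 9 genes (Jak2, Stat2, Socs1 and Ptpn2) were higher in si-dnmt ECs and 0 lower, against 9.58% of all genes higher and 8.88% lower. The folds were 1.56 for Jak2, 1.65 for Stat2, 2.01 for Socs1 and 1.23 for Ptpn2. With TNF Socs1 was higher and Ifngr1 lower, against 10.4% higher and 9.59% lower over all genes. With the block the count without cytokine was 7, with 6 higher and 1 lower, against 32.4% of all genes in either direction.

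With IFNγ edgeR called 0 of the 9 genes different between the siRNAs, and with TNF + IFN also 0. Over all genes 10.8% were higher and 9.54% lower with IFNγ, and 8.97% higher and 8.72% lower with TNF + IFN. At an unadjusted p under 0.05 the counts were 1 (Ptpn2, with IFNγ) and 2 (Ifngr1 and Socs1, with TNF + IFN). DESeq2 called 0 with IFNγ and 1 (Socs1) with TNF + IFN, and the block called 1 in each (Socs3 lower with IFNγ, Socs1 higher with TNF + IFN), against 34.5% and 30.8% of all genes. Within replicates 1 and 2 alone 2 of the 9 were called with IFNγ and 4 with TNF + IFN, where 25.2% and 23.8% of all genes were called. Within replicates 3 and 4 alone the counts were 1 and 5, against 38.5% and 36.2% of all genes.

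**Figure D4:**
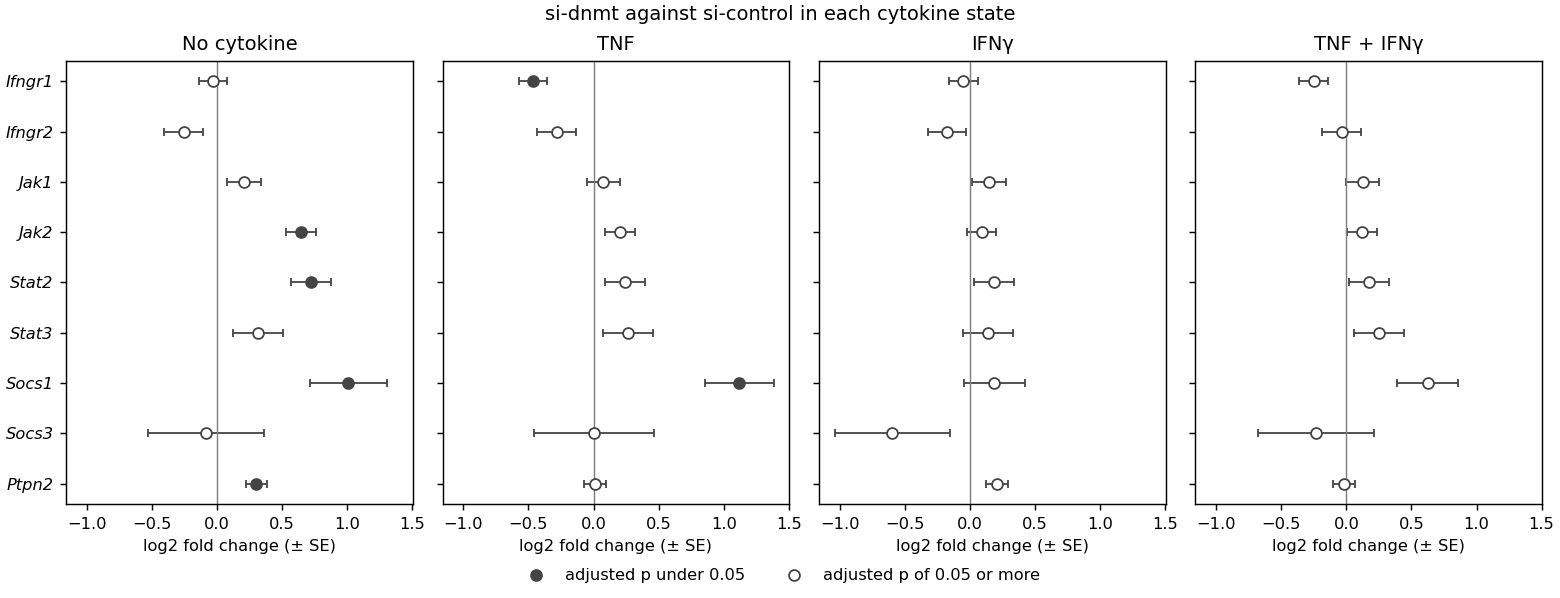
log2 fold change (± SE) of each gene in si-dnmt against si-control ECs, in 1 panel for each cytokine state, with filled circles where the adjusted p was under 0.05. Jak2, Stat2, Socs1 and Ptpn2 are filled without cytokine at 0.64, 0.72, 1.01 and 0.30, Socs1 and Ifngr1 with TNF at 1.12 and -0.46, and none in the other panels.

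Whether the response to a cytokine differed between the siRNAs was tested by interaction terms, and whether the cytokines together gave more or less than the sum of their log2 fold changes by a further pair of terms. EdgeR called 0 of the 9 genes in each of the 5, where 0.0328% of all genes were called for siRNA and TNF, 0.0459% for siRNA and IFNγ, 0.531% for siRNA and TNF + IFN, 1.06% for TNF and IFNγ in si-control ECs and 0.354% for the same in si-dnmt ECs. At an unadjusted p under 0.05 the counts were 4, 3, 3, 3 and 1, and DESeq2 called 0 in all but TNF and IFNγ in si-control ECs, where it called 1 (Socs1). For Jak2 the response in si-dnmt ECs minus that in si-control ECs was -0.44 ± 0.16, adjusted p = 0.522 for TNF, -0.55 ± 0.16, adjusted p = 0.533 for IFNγ and -0.52 ± 0.16, adjusted p = 0.173 for TNF + IFN. For Stat2 the same differences were -0.48 ± 0.22, adjusted p = 0.697, -0.53 ± 0.22, adjusted p = 1.00 and -0.54 ± 0.22, adjusted p = 0.385, and the last passed with the block (-0.50, adjusted p = 0.0281).

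For Ifngr1 with TNF the difference of responses was -0.43 ± 0.16, adjusted p = 0.509, for Ptpn2 with TNF + IFN -0.32 ± 0.12, adjusted p = 0.298, and for Socs1 with IFNγ -0.82 ± 0.38, adjusted p = 1.00. The Ifngr1 value passed within replicates 3 and 4 (-0.63, adjusted p = 0.000914), as did that of Ptpn2 (-0.52, adjusted p = 0.0170), and that of Socs1 passed within replicates 1 and 2 (-1.57, adjusted p = 0.0178) and ranged from -0.61 to -1.29 when 1 library was left out, with -1.29 (adjusted p = 0.460) reached without si-control replicate 3. Within replicates 1 and 2 the Stat2 difference with TNF + IFN was -0.91, adjusted p = 0.000119, and within replicates 3 and 4 -0.11, adjusted p = 0.580. For Jak2 with TNF + IFN both pairs passed, at -0.48, adjusted p = 0.0203 and -0.60, adjusted p = 0.00331, and so they did with IFNγ (-0.55, adjusted p = 0.0156, and -0.61, adjusted p = 0.0156). Over all libraries edgeR called neither of these (adjusted p = 0.173 and 0.533). A p-value within a pair of replicates measures only the spread of 2 libraries a group. Socs1 with TNF + IFN differed from the sum of its single responses by -1.29 ± 0.38 in si-control ECs (adjusted p = 0.112 in edgeR, 0.0263 in DESeq2 and 0.0446 with the block) and by -0.97 ± 0.35, adjusted p = 0.466, in si-dnmt ECs. Without si-control replicate 3 the si-control value was -1.76 (adjusted p = 0.00915), and it passed within both pairs (-1.82, adjusted p = 0.000933, and -1.19, adjusted p = 0.0458).

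The other genes of the pathway were taken from 6 lists. Between the siRNAs 8.97% to 10.8% of all genes were higher and 8.72% to 9.59% lower. In si-control ECs 16.1% were higher and 14.6% lower with TNF, 8.56% and 5.92% with IFNγ, and 23.5% and 21.6% with TNF + IFN. In si-dnmt ECs these shares were 11.5% and 9.54%, 6.66% and 2.35%, and 21.3% and 18.9%. With lists this short, a count near these shares is no result about the list. Of 6 further JAK and STAT genes, 1 was higher and 1 lower in si-dnmt ECs in every cytokine state. Tyk2, the JAK of the type I interferon receptor, was the higher one. Without cytokine its mean ± SD (n = 4) was 37.0 ± 1.92 CPM under si-control siRNA and 46.1 ± 2.15 CPM under si-dnmt, a log2 fold change of 0.32 ± 0.11, adjusted p = 0.0399. With TNF + IFN the siRNA difference was 0.80 ± 0.11, adjusted p = 6.10e-06. Stat5b, a STAT of growth hormone and cytokine receptors, was the lower one, falling from 66.9 ± 3.25 CPM to 24.6 ± 7.80 CPM without cytokine (-1.45 ± 0.18, adjusted p = 1.54e-06), with log2 fold changes of -1.36 to -1.48 in the other states. In si-control ECs edgeR called 0 of the 6 with TNF and 0 with IFNγ (0 and 1 at an unadjusted p under 0.05, and 0 and 0 in DESeq2), and 1 fell with TNF + IFN (Stat4, -1.66 ± 0.52, adjusted p = 0.0106). Stat4 levels were low there, at 0.610 to 1.88 CPM without cytokine and 0.192 to 0.573 CPM with TNF + IFN. In si-dnmt ECs TNF raised 1 (Tyk2, 0.37 ± 0.11, adjusted p = 0.0148), TNF + IFN raised 2 (Stat5a and Tyk2) and lowered 1 (Stat4), and IFNγ moved 0 (1 at an unadjusted p under 0.05, and 0 in DESeq2).

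Of 6 interferon and other interferon receptor genes, 4 could be tested, and edgeR called 0 between the siRNAs in each state (0 also at an unadjusted p under 0.05, and 0 in DESeq2). Ifng itself had 0 counts in all 32 libraries. Ifnar2, a chain of the type I interferon receptor, rose with TNF (0.87 ± 0.17, adjusted p = 0.000280), IFNγ (0.57 ± 0.17, adjusted p = 0.0237) and TNF + IFN (1.25 ± 0.17, adjusted p = 9.06e-07) in si-control ECs and with all 3 in si-dnmt ECs. It was the single call of the 4 with TNF and with IFNγ in si-control ECs, while TNF + IFN raised 2 and lowered 1 (Ifnar1, -0.50 ± 0.21, adjusted p = 0.0468). In si-dnmt ECs TNF raised 2 of the 4, IFNγ 1 and TNF + IFN 2, with 0 lowered. Ifnb1, the gene of interferon beta, rose with TNF + IFN in both (4.94 ± 0.80, adjusted p = 1.00e-05, and 4.41 ± 0.76, adjusted p = 2.67e-05), and ranged from 0.582 to 4.13 CPM in the 4 libraries of si-control + TNF + IFN. Without cytokine it was near the floor, at 0 to 0.179 CPM in si-control and 0 to 0.139 CPM in si-dnmt. The size of these folds is therefore uncertain.

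Among the 10 gp130 cytokine and receptor genes, which signal through Stat3, 8 could be tested, and only Lif passed between the siRNAs. Lif, a gp130 cytokine, was higher in si-dnmt ECs in all 4 states, at 2.19 ± 0.31, adjusted p = 1.04e-05 without cytokine and 1.02 ± 0.25, adjusted p = 0.00386 with TNF + IFN. Lif stood at 0.753 ± 0.209 CPM in si-control ECs and 19.2 ± 1.93 CPM once TNF + IFN were added. In si-dnmt ECs the same levels were 3.44 ± 1.76 and 38.9 ± 3.08 CPM. In si-control ECs TNF raised 1 of the 8 (Lif) and lowered 2 (Il6ra and Il11ra1), IFNγ raised 2 (Lif and Osmr) and TNF + IFN raised the same 2 and lowered the same 2 as the single cytokines. In si-dnmt ECs TNF raised 1 of the 8 and lowered 1, IFNγ raised 1 and lowered 0, and TNF + IFN raised 2 and lowered 2.

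Of 6 other SOCS-family genes, Socs5 was lower in si-dnmt ECs in all 4 states (-0.88, -0.85, -0.72 and -0.72). Without cytokine 1 of the 6 was higher (Socs6, 0.40 ± 0.11, adjusted p = 0.00824), with IFNγ 2 (Socs7, 0.39 ± 0.07, adjusted p = 0.000215, and Socs6, 0.34 ± 0.11, adjusted p = 0.0246), with TNF + IFN 1 (Socs7, 0.50 ± 0.07, adjusted p = 1.30e-05), and with TNF edgeR called none higher. TNF + IFN raised 3 of the 6 in si-control ECs (led by Cish, 1.00 ± 0.27, adjusted p = 0.00303) and lowered 1 (Socs2, -1.10 ± 0.45, adjusted p = 0.0448), and raised 2 (Cish and Socs7) in si-dnmt ECs. TNF raised 1 of the 6 (Socs7) under each siRNA, and IFNγ raised 1 (Socs7) in si-dnmt ECs. Of 10 other brakes, Usp18, which blocks the type I interferon receptor, rose most, at 3.13 ± 0.32, adjusted p = 4.76e-09 with TNF + IFN in si-control ECs, and was higher in si-dnmt ECs without cytokine (0.97 ± 0.30, adjusted p = 0.0235), where Ptpn6, the phosphatase SHP1, was lower (-1.55 ± 0.53, adjusted p = 0.0416). Without cytokine Ptpn6 levels were low and overlapped, at 0.689 to 3.25 CPM in si-control and 0.257 to 1.09 CPM in si-dnmt libraries. Ptpn11, the phosphatase SHP2, was lower in si-dnmt ECs in all 4 states, with log2 fold changes of -0.26 to -0.28. Between the siRNAs 1 of these 10 was higher and 2 lower in si-dnmt ECs without cytokine, and 0 were higher and 1 lower with TNF. The counts were 1 higher and 1 lower both with IFNγ and with TNF + IFN. In si-control ECs TNF raised 1 of these 10 and lowered 1, IFNγ raised 2, and TNF + IFN raised 1 and lowered 2. In si-dnmt ECs TNF raised 1 and lowered 1, TNF + IFN raised 1 and lowered 2, and IFNγ moved 0 (2 at an unadjusted p under 0.05, and 0 in DESeq2).

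Of 5 interferon regulatory factors, 3 were higher in si-dnmt ECs without cytokine, namely Irf7 (1.45 ± 0.30, adjusted p = 0.000937), Irf1 (0.51 ± 0.14, adjusted p = 0.0127) and Irf2 (0.31 ± 0.09, adjusted p = 0.0164), and edgeR called 0 of the 5 between the siRNAs with TNF, 0 with IFNγ and 0 with TNF + IFN (1, 1 and 0 at an unadjusted p under 0.05, and 0 in DESeq2 in each). TNF raised 3 of the 5 in si-control ECs and 1 in si-dnmt ECs. IFNγ raised 4 in si-control ECs and 3 in si-dnmt ECs, led by Irf1 at 4.40 ± 0.16, adjusted p = 5.83e-18 and 3.65 ± 0.16, adjusted p = 2.47e-16. TNF + IFN raised 5 in si-control and 4 in si-dnmt ECs. For Irf1 the response to both cytokines minus the sum of the single responses was -1.50 ± 0.20, adjusted p = 4.21e-05 in si-control ECs. In si-dnmt ECs edgeR also called 1 of the 5 below that sum, against 0.354% of all genes in either direction. Mean Irf1 in si-dnmt ECs was 50.9 CPM without cytokine, 157 with TNF, 638 with IFNγ and 899 with TNF + IFN. Irf9, the partner of STAT2, was singled out after its values were seen, and stood at 0.35 ± 0.09, adjusted p = 0.00155 with TNF + IFN in si-control ECs.

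The genes whose pattern lay closest to each of the 9 were found by Pearson's r of log2 CPM over the 32 libraries, among 9841 genes. These libraries share groups and replicate numbers, so r is a description. Closest to Jak2 were Mlkl (r = 0.987) and Slamf8 (r = 0.977), to Stat2 Ifi207 (r = 0.981) and Ifi206 (r = 0.980), to Socs1 Batf2 (r = 0.984) and Pla2g16 (r = 0.983) and to Ptpn2 Naa25 (r = 0.980) and Nos2 (r = 0.967). Closest to Ifngr1 were Trp53 (r = 0.960) and Itga2 (r = 0.938) and to Socs3 Tspan4 (r = 0.960) and Cttnbp2nl (r = 0.940). The values were lower for Ifngr2, with Dapk2 (r = 0.895) and Ttll4 (r = 0.881), for Jak1, with Nktr (r = 0.902) and Tnfaip1 (r = 0.897), and for Stat3, with Asb4 (r = 0.917) and Ganc (r = 0.874). Among the 9 genes themselves, Jak2 and Ptpn2 had r = 0.945 and Jak2 and Stat2 r = 0.909, while Socs3 and Ptpn2 had r = 0.160.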

How the data were processed

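RNA from 32 libraries of a mouse lung EC line was sequenced by the authors, who deposited raw gene counts per library and a merged table, made with featureCounts from trimmed reads. The submitters' processing notes also name cutadapt 4.9, FastQC 0.12.1, MultiQC 1.27.1 and DESeq2. Aligner, genome build, annotation and strand setting: not given in the sources used here. Reads of overlapping or antisense genes therefore cannot be told apart. The merged table equalled the per-library counts (0 cells differing).

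Genes were kept with edgeR's filterByExpr (minimum count of 10), leaving 15254. All 32 libraries were fitted with 8 group means (edgeR 4.0.16, R 4.3.3, TMM factors 0.880 to 1.09). Contrasts were tested with edgeR's quasi-likelihood test, two-sided, and p-values were adjusted by Benjamini-Hochberg over all genes tested, with a call at an adjusted p under 0.05. SE is the log2 fold change divided by the square root of F. The fit was tested on simulated counts that had a common spread for all genes and no effect of replicate. That test therefore cannot tell how replicate effects bear on the fit. Alternatives were DESeq2 1.42.0, RLE scaling, no filter, a replicate block, only the libraries compared, each pair of replicates, and leaving out each library. Same-numbered libraries deviated together from their group means (r = 0.299 to 0.617 over 40 pairs, all over 0.1). The same-numbered library was the closest match in only 16 of these 40. In the rest, the closest match was the other member of the same pair of replicates. These values therefore do not show that libraries are paired by their single numbers. Values with the number as a block are given where they change a call. P-values measure only the spread between these cultures.

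Exon lengths were the union of exons in GENCODE M21. Promoter windows came from RefSeq and were examined for 8 of the 9 genes, with Ptpn2 left out by plan. The genes, lists and tests were chosen with earlier results of these data known. Every chosen gene is named, and from each list at most 3 called genes with the largest changes in the comparison described, or a gene said to be singled out later. The values of 1 further gene of the pathway are not reported here.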

Additional observations from a re-analysis of the deposited data

Results flagged for a closer look

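Within the 8 groups of 4 libraries, each of the 9 genes was screened for a library far from the other 3 on the log2 scale (gap to the nearest over the whole range above Dixon's 95% critical value). Of 72 such groups 1 stood out, and chance gives about 1 in 20. Socs1 in si-dnmt + IFN replicate 4 stood at 60.3 CPM, where the other 3 libraries held 44.6 to 46.4 CPM, with a ratio of 0.872.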

How the results depend on the processing

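The value of each gene in each comparison was recomputed under every alternative, and interactions for the genes whose values are given. Direction and call held in 98 of 101 values with DESeq2, 100 with RLE scaling, 100 with no filter, 91 in fits of only the libraries compared, and 77 with the replicate block, which made 24 more calls, lost 0 and changed no other call. Within replicates 1 and 2 alone 64 held and within replicates 3 and 4 alone 63. Leaving out 1 library kept 834 values, lost 27 calls, gained 13 and turned the sign of 22.

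The number of the 9 genes called between the siRNAs without cytokine (4) became 7 with the block and 2 in the fit of only the libraries compared. With TNF (2) it became 5 within replicates 1 and 2 and 4 within replicates 3 and 4. With IFNγ (0) it became 1 with the block, 2 within replicates 1 and 2 and 1 within replicates 3 and 4. With TNF + IFN (0) it became 1 with DESeq2, 1 with the block, 1 in the fit of only the libraries compared, 4 and 5 within the pairs of replicates, and 0 to 2 when 1 library was left out. In si-control ECs the counts with TNF (6), IFNγ (7) and TNF + IFN (6) became 8, 9 and 8 with the block. They became 5 in each fit of only the libraries compared, where 1334 to 5756 of all genes were called over the 6 cytokine comparisons. In si-dnmt ECs the count with TNF (4) became 8 with the block and 7 within each pair, with IFNγ (5) 8 with the block and 8 within replicates 1 and 2, and with TNF + IFN (5) 8 with the block and 8 within replicates 3 and 4. The 5 interactions (0 each) gave 1 and 3 within the pairs of replicates for siRNA and TNF, 4 and 1 for siRNA and IFNγ, 4 and 3 for siRNA and TNF + IFN (1 with the block), 4 and 2 for TNF and IFNγ in si-control ECs (1 with DESeq2, 1 with the block, 0 to 1 when 1 library was left out), and 2 within replicates 1 and 2 for TNF and IFNγ in si-dnmt ECs. The cause was not tested. A pair of replicates alone leaves 2 libraries a group.

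Reversals were all in differences that were not called over all libraries. Within replicates 3 and 4 alone the siRNA difference turned to 0.11 for Ifngr1 without cytokine, -0.0339 for Ptpn2 with TNF, 0.0368 for Ifngr1 and -0.0634 for Jak2 with IFNγ, and -0.0159 for Jak1, -0.0524 for Jak2 and 0.23 for Socs3 with TNF + IFN. Within replicates 1 and 2 it turned to -0.0321 for Socs3 with TNF, -0.0675 for Socs1 with IFNγ, and 0.12 for Ifngr1, 0.15 for Ifngr2 and 0.0388 for Ptpn2 with TNF + IFN. In the fit of only the libraries compared it turned to -0.0154 for Socs3 and -0.00377 for Ptpn2 with TNF. Ifngr2 with TNF + IFN in si-control ECs turned to 0.29 within replicates 3 and 4 and ranged from -0.17 to 0.12 when 1 library was left out. The other ranges over left-out libraries that crossed 0 were -0.0740 to 0.0564 (Ifngr1, siRNA, no cytokine), -0.45 to 0.17 (Socs3, siRNA, no cytokine), -0.26 to 0.20 (Socs3, siRNA, TNF), -0.0332 to 0.05002 (Ptpn2, siRNA, TNF), -0.10 to 0.00421 (Ifngr1, siRNA, IFNγ), -0.11 to 0.0367, -0.43 to 0.0536 and -0.0674 to 0.0151 (Ifngr2, Socs3 and Ptpn2, siRNA, TNF + IFN), and -0.0170 to 0.13 (Jak1, TNF in si-dnmt ECs).

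Over all genes the siRNA comparisons called 2699 to 3103 genes, and 4694 to 5258 with the block. The cytokine comparisons called 1375 to 6889, and 2892 to 8399 with the block. The interactions called 5 to 162, and 59 to 646 with the block. In fits of only the libraries compared, the siRNA comparisons called 2007 to 2356, the cytokine comparisons 1334 to 5756 and the interactions 0 to 122. Within replicates 1 and 2 the siRNA comparisons called 3650 to 4015, the cytokine comparisons 2987 to 7548 and the interactions 276 to 1632, and within replicates 3 and 4 they called 5497 to 5853, 2449 to 7822 and 154 to 1795. The lowest count of a library was 15 for Socs1 and 145 or more for each of the other 8 genes, and the effect of depth was not tested.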
